A study of Mus musculus with 4 samples.

Results

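The genes described here encode collagens, laminins and basement membrane proteins. They were taken by symbol: every collagen chain gene and every laminin chain gene with a numbered name, except Col3a1 and Col4a1, together with Nid1, Nid2, Hspg2, Agrn, Sparc, Fbln1, Fbln2, Tnc and Vtn. This gave 62 of the 29267 genes in the deposited tables, of which 42 are collagens, 11 are laminins and 9 are the other proteins. RNA was sequenced from mouse iEpiSCs, epiblast stem cells induced in culture from naive embryonic stem cells (ESCs), in 2 libraries of genotype c-Jun-/- (knockout) and 2 of wild type. ESCs of both genotypes had been kept in N2B27 with 2i and LIF, replated on a serum coat, and converted in a medium with 20 ng/ml Activin A, 20 ng/ml bFGF, 2 µM XAV939 and 2.5 µM IWR-1. The resulting cells were then kept with Activin A and bFGF. Whether the libraries of a genotype are separate cultures, or the lines single clones, is not in the labels. A p-value here therefore measures the spread between samples that may be technical repeats, and genotype and cell line cannot be told apart.

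A basement membrane is a thin sheet of matrix under an epithelium. Laminins are trimers of an alpha, a beta and a gamma chain that polymerise on the cell surface, type IV collagen forms a second network, and nidogens and the heparan sulfate proteoglycans perlecan and agrin tie these networks together. The epiblast sits on such a sheet after implantation, and cultured pluripotent cells attach to laminins that contain the Lama5 chain. Sparc, fibulins, tenascin C and vitronectin bind matrix or cells and modulate adhesion.

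Libraries held 4666559 to 6341342 expected counts. A gene with no count could still have been present at up to 3 counts, or 0.473 to 0.643 CPM (counts scaled to 1000000 per library), counting error only. Jun, the targeted gene, was at 28.9 and 29.6 CPM in the knockout against 106 and 121 CPM in wild type; which part of it was deleted is not in the labels. All 8 primed epiblast markers listed were tested, among them Pou5f1 at 406 to 473 CPM and Fgf5 at 181 to 248 CPM, and of 8 naive markers Dppa3, Nr0b1 and Prdm14 had no count in any library. Of the 4 naive markers tested, Tbx3 was called higher (18 and 14 counts in the knockout, 0 and 0 in wild type) and Klf4, Esrrb and Tfcp2l1 did not pass. Tbx3 passed the filter on low counts only through the knockout libraries. A limma test on log2(TPM + 1) did not call it (adjusted p = 0.0938). The naive list summed to 17.3 and 18.7 CPM in the knockout and 14.6 and 13.6 CPM in wild type. Of the 8 primed markers, 1 was higher and 6 were lower in the knockout (Otx2 -1.18, Sox2 -1.14). Over all genes tested, 1034 (8.21%) were higher and 922 (7.32%) lower in the knockout by edgeR's quasi-likelihood test, with a Benjamini-Hochberg adjusted p under 0.05. With the genes of chromosome 8 centred on their own median, these counts were 651 and 916. In what follows, CPM are scaled by TMM and compare 1 gene between libraries, TPM (transcript levels scaled by length) compare genes with each other, and a value with ± is a log2 fold change, knockout over wild type, with its standard error (n = 2 libraries in each genotype).

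The linker and proteoglycan genes Nid2, Hspg2 and Agrn were higher in the knockout, 4 of the 5 laminin chains that passed were lower, and the matricellular genes Sparc, Fbln1 and Fbln2 were lower. Of the 62 members, 37 passed the filter on low counts, 8 were higher (against 8.21% of all genes tested), 8 were lower (against 7.32%) and 21 did not pass the threshold. The 16 called members made up 43.2% of those tested, against 15.5% of all genes tested. The members and the gene lists below were chosen with earlier results of these data known, so such shares are not an unbiased measure. The higher genes described here were Col6a5, Col12a1, Tnc, Nid2, Col18a1, Hspg2 and Agrn, and the lower ones Lama3, Fbln2, Lamb3, Col2a1, Fbln1, Sparc, Lamb1 and Lama5. The median log2 fold change of the tested members was -0.047, against 0.0015 over all genes tested, since members moved both ways. The median size of the change, regardless of sign, was 0.487 for members and 0.195 for all genes tested, while the median level of the tested members, 21.04 CPM, was below that of all genes tested, 33.4 CPM. In all 16 called members the CPM of the genotypes did not overlap, which the call itself makes likely and which adds no support. Among the 37 tested members, called or not, 29 did not overlap, a pattern that 53.9% of all genes tested also showed.

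**Figure D1:**
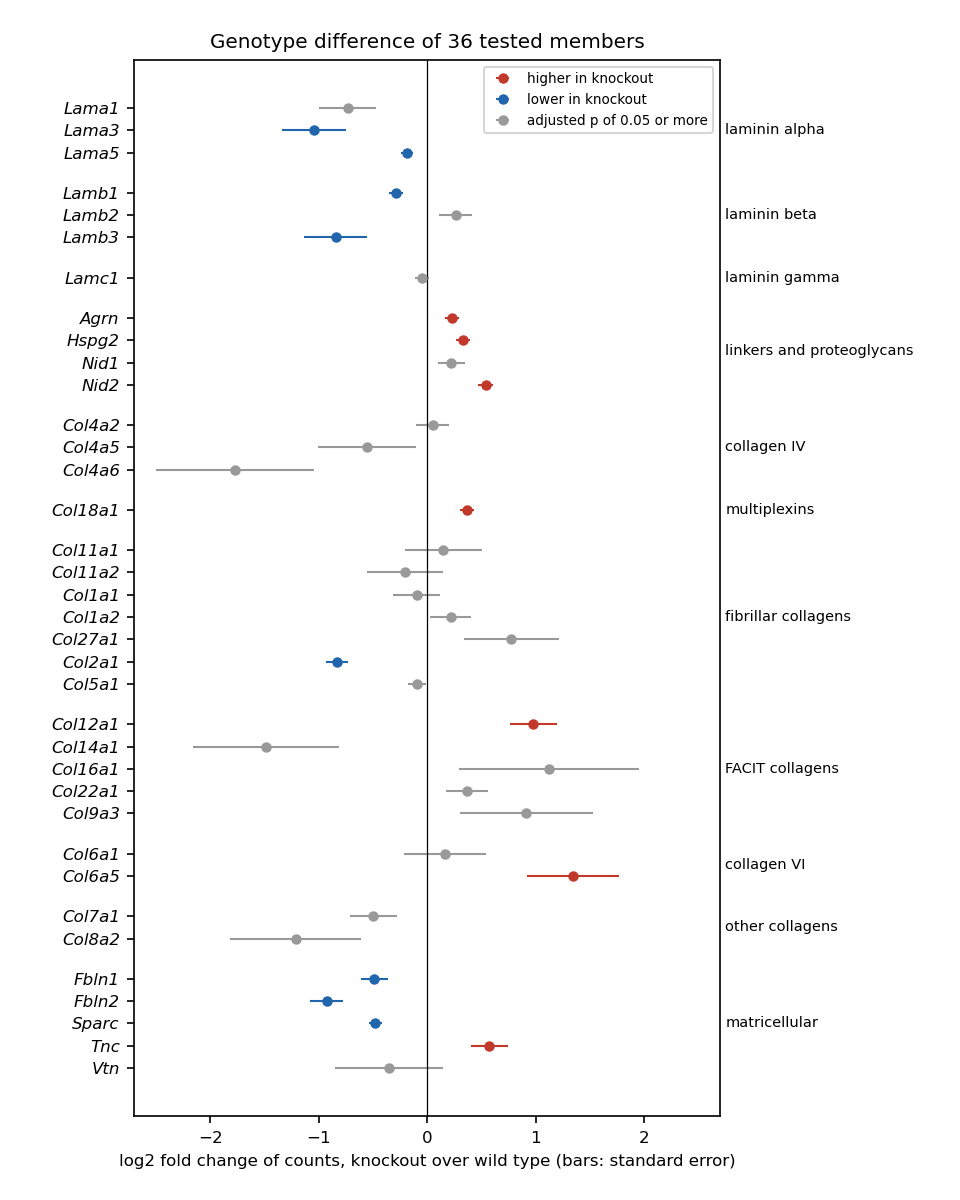
Log2 fold change of counts (x axis, knockout over wild type) of 36 of the 37 tested members, grouped by role, with bars for the standard error and n = 2 libraries per genotype. Points in red (7) were higher and points in blue (8) lower at an adjusted p under 0.05, with Col6a5 at 1.35 and Lama3 at -1.04 as the highest and lowest of the called genes plotted.

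Summed over the members, TPM were 1935 and 1914 in the knockout, below the 2203 and 2175 of wild type. Matricellular genes summed to less in the knockout, with 738 and 794 TPM in the knockout and 1080 and 1076 TPM in wild type. Linkers and proteoglycans went the other way, with 414 and 378 TPM in the knockout and 280 and 318 TPM in wild type. Collagens did not separate the genotypes, at 267 and 282 TPM against 262 and 281 TPM. Laminins overlapped too, at 516 and 459 TPM in the knockout and 581 and 500.0 TPM in wild type. With 2 libraries against 2 an exact permutation test cannot go below p = 0.333 (two-sided), so these sums were not tested. Sparc alone held 34.8% and 37.3% of the members' TPM in the knockout and 44.1% and 44.8% in wild type.

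Alpha chains carry the laminin domains that integrins and dystroglycan bind. Lama5 (ENSMUSG00000015647, minus strand of chromosome 2 from 180176373 to 180225859, GRCm38) was the main one in these cells, with 98.0% and 97.7% of all laminin alpha TPM in the knockout and 96.2% and 96.0% in wild type. Its level was 613 and 593 CPM in the knockout and 646 and 724 CPM in wild type. The genotypes did not overlap, but the highest knockout library lay close to the lowest wild-type library. Its log2 fold change was -0.18 ± 0.06 (edgeR adjusted p = 0.0222). Leaving out knockout replicate 3 ended the call (adjusted p = 0.104), as did leaving out wild-type replicate 3 (-0.095, adjusted p = 0.422), and DESeq2 (adjusted p = 0.0655). In TPM the genotypes overlapped (208 and 175 against 211 and 206).

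Lama3, an alpha chain of stratified and simple epithelia that pairs with Lamb3, was much scarcer, at 1.70 to 5.08 TPM over the 4 libraries. It had 7.77 and 5.22 CPM in the knockout and 14.8 and 12.5 CPM in wild type, a log2 fold change of -1.04 ± 0.29 (edgeR adjusted p = 0.0124). Both knockout libraries were below both wild-type libraries. Leaving out knockout replicate 3 or wild-type replicate 2 ended the call (adjusted p = 0.0946 and 0.0896), as did DESeq2 (adjusted p = 0.0944). Lama1, the alpha chain of the early embryo's basement membranes, had 7.93 and 10.0 CPM in the knockout and 15.2 and 14.4 CPM in wild type, and at -0.73 ± 0.26 did not pass (edgeR adjusted p = 0.0549). It passed without knockout replicate 3 (adjusted p = 0.0434). Lama2 and Lama4, with 15 and 6 counts over all libraries, were below the filter.

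Beta chains join the alpha and gamma chains in the coiled coil of the trimer. Lamb1 (chromosome 12, plus strand, 31265234 to 31329644) had 258 and 241 CPM in the knockout and 313 and 296 CPM in wild type, so the genotypes did not overlap. The log2 fold change was -0.29 ± 0.07 (edgeR adjusted p = 0.00255). In TPM the genotypes overlapped by a narrow margin, with 97.0 and 75.3 in the knockout and 140 and 96.2 in wild type. Lamb3 had 6.82 and 6.96 CPM in the knockout and 12.7 and 12.1 CPM in wild type (-0.85 ± 0.29, edgeR adjusted p = 0.0466). Its call also ended without chromosome 8 genes (adjusted p = 0.0597), with them centred (0.0548) and with DESeq2 (0.233). It was lost when any of the 4 libraries was left out (adjusted p from 0.0965 without knockout replicate 3 to 0.153 without wild-type replicate 2, and 0.141 and 0.1303 without knockout replicate 2 and wild-type replicate 3). Lamb2, the beta chain of mature vessel, kidney and synaptic membranes, had 39.3 and 40.9 CPM in the knockout and 30.5 and 36.2 CPM in wild type, and did not pass at 0.26 ± 0.15. Its share of the laminin beta TPM was 22.1% and 29.4% in the knockout and 14.8% and 18.2% in wild type.

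Gamma chains hold the nidogen binding site of most laminins. Lamc1, the gamma chain of most laminins (minus strand of chromosome 1, 153218922 to 153332786), had 416 and 375 CPM in the knockout and 405 and 414 CPM in wild type, and did not pass (-0.05 ± 0.06, edgeR adjusted p = 0.693). Lamc3 had 8 counts over all libraries.

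**Figure D2:**
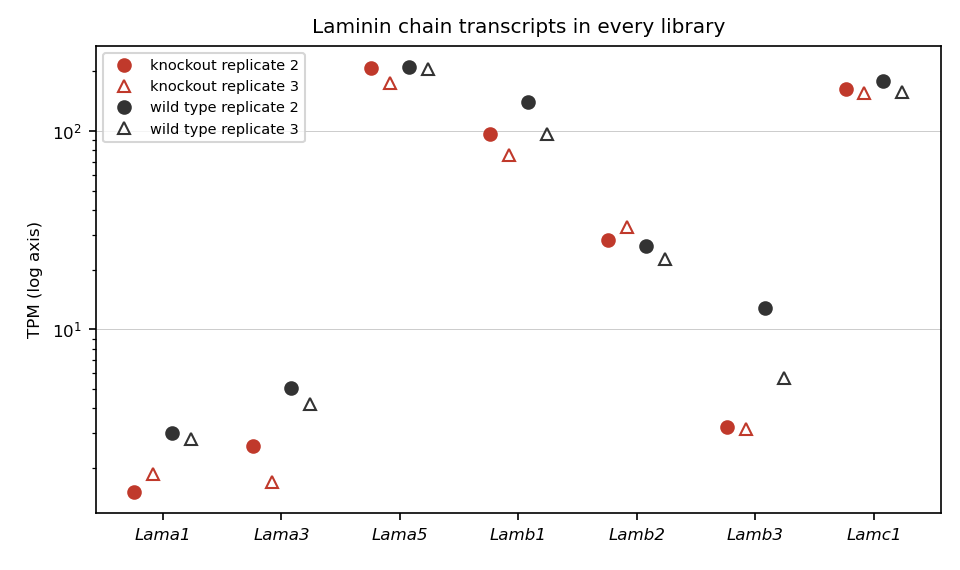
TPM (y axis, log scale) of 7 of the 8 tested laminin chains in each of the 4 libraries, with circles for replicate 2 and triangles for replicate 3. Lama5, Lamc1 and Lamb1 lie above the other chains in every library, and Lama3 and Lamb3 are lower in both knockout libraries than in both wild-type libraries.

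Of the 4 linkers and proteoglycans, 3 rose and none fell, against 8.21% and 7.32% of all genes tested. Their median level was 309 CPM, against 33.4 CPM for all genes tested. At such levels smaller changes can pass, so those shares are not a like comparison. Nid2, a nidogen that bridges laminin and type IV collagen (plus strand of chromosome 14, 19751265 to 19811787), had 328 and 332 CPM in the knockout and 213 and 240 CPM in wild type. It rose by 0.54 ± 0.07 (edgeR adjusted p = 5.77e-07). An exon of Nid2 shares up to 437 bases with Rtraf on the opposite strand, and the labels do not say that the kit kept strand. Rtraf itself stood at 0.07 (edgeR adjusted p = 0.630). Nid1, the other nidogen, had 59.8 and 62.2 CPM in the knockout and 49.4 and 54.8 CPM in wild type, which do not overlap, but did not pass (0.22 ± 0.12, edgeR adjusted p = 0.245). In TPM, Nid2 exceeded Nid1 by 6.84 and 6.66 times in the knockout and by 5.39 and 5.46 times in wild type.

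Hspg2 encodes perlecan, a heparan sulfate proteoglycan that binds growth factors such as FGFs (plus strand of chromosome 4, 137468769 to 137570630). Its level was 387 and 369 CPM in the knockout and 289 and 315 CPM in wild type, a rise of 0.33 ± 0.06 (edgeR adjusted p = 3.38e-04). Agrn encodes agrin, the heparan sulfate proteoglycan first known from the neuromuscular junction (minus strand of chromosome 4, 156165290 to 156197488). It had 429 and 425 CPM in the knockout and 348 and 380 CPM in wild type (0.23 ± 0.06, edgeR adjusted p = 0.00788). Both genes separated the genotypes in CPM and in TPM. The call of Agrn was lost without wild-type replicate 2 (adjusted p = 0.157).

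Among basement membrane collagens, Col18a1 was higher in the knockout and the 3 tested type IV chains among the members did not pass. Col18a1, a multiplexin collagen that carries heparan sulfate and whose C-terminal fragment is endostatin (minus strand of chromosome 10, 77052178 to 77166548), had 355 and 363 CPM in the knockout and 276 and 281 CPM in wild type. The libraries of a genotype lay close together, and the rise was 0.37 ± 0.06 (edgeR adjusted p = 5.97e-05). Col15a1, the other multiplexin, had 24 counts over all libraries and was below the filter.

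Col4a2 encodes the chain that pairs with Col4a1 in the common type IV collagen, and lies head to head with it on chromosome 8 (plus strand, 11312805 to 11449287). It had 37.3 and 35.5 CPM in the knockout and 32.0 and 38.2 CPM in wild type, with overlap, and a log2 fold change of 0.05 ± 0.15 (edgeR adjusted p = 0.882). Col4a1, which is not a member, had 77.9 and 80.7 CPM in the knockout and 58.5 and 59.9 CPM in wild type (0.42 ± 0.11, edgeR adjusted p = 0.00757), and was called higher. Chromosome 8 genes as a body were higher in the knockout, with a median log2 fold change of 0.51 over 684 tested genes, and Col4a2 was the only tested member on it. With these genes centred on their own median, Col4a1 stood at -0.09 (edgeR adjusted p = 0.675) and Col4a2 at -0.46 (edgeR adjusted p = 0.0415, 0.0415 to 0.988 over the alternatives). Col4a5 (-0.56 ± 0.45) and Col4a6 (-1.77 ± 0.73), the neighbouring X-linked chains, did not pass (edgeR adjusted p = 0.475 and 0.105), with Col4a6 at 0.476 and 1.09 CPM in the knockout and 2.77 and 2.43 CPM in wild type. Col4a4 had 2 counts over all libraries and Col4a3 had none.

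Fibrillar collagens form the cross-banded fibres of the interstitial matrix. Col2a1, the fibrillar collagen of cartilage and notochord (minus strand of chromosome 15, 97975602 to 98004695), had 64.4 and 66.3 CPM in the knockout and 112 and 121 CPM in wild type. The groups were well apart, at -0.83 ± 0.10 (edgeR adjusted p = 1.97e-07), and the call was kept in all 13 alternatives. Col5a1, a regulatory chain of fibrils, had 142 and 155 CPM in the knockout and 159 and 158 CPM in wild type (-0.09 ± 0.08, edgeR adjusted p = 0.516). The type I chains Col1a1 (-0.10 ± 0.21) and Col1a2 (0.22 ± 0.19) overlapped between genotypes, with 15.01 to 18.0 CPM and 19.0 to 27.8 CPM. Col11a1 (0.15), Col11a2 (-0.21) and Col27a1 (0.78) did not pass either (edgeR adjusted p from 0.266 to 0.847). Col5a2, Col5a3 and Col24a1 had 9, 6 and 4 counts over all libraries.

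FACIT collagens sit on the surface of fibrils. Col12a1 (minus strand of chromosome 9, 79598991 to 79718831), which decorates type I fibrils, had 24.9 and 21.5 CPM in the knockout and 13.1 and 10.6 CPM in wild type. It rose by 0.98 ± 0.21 (edgeR adjusted p = 0.00120), and in TPM the difference was smaller, with 5.24 and 4.34 in the knockout against 4.17 and 2.64 in wild type. Col22a1, a collagen of tissue junctions, had 22.7 and 24.8 CPM in the knockout and 18.4 and 18.3 CPM in wild type (0.37 ± 0.19) and did not pass (edgeR adjusted p = 0.213). Col14a1 (-1.49), Col16a1 (1.12) and Col9a3 (0.92) were at most 4.35 CPM in any library and did not pass. Col16a1 had no count in wild-type replicate 2.

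Of the 2 type VI chains tested, Col6a5 was called higher in the knockout and Col6a1 did not pass. Type VI collagen builds beaded microfilaments around cells. Col6a5 had 6.66 and 8.70 CPM in the knockout and 3.36 and 2.61 CPM in wild type (1.35 ± 0.42, edgeR adjusted p = 0.0268). Leaving out replicate 3 of the knockout or of wild type ended the call (adjusted p = 0.206 and 0.164), as did DESeq2 (adjusted p = 0.130). Its TPM overlapped (4.11 and 2.68 against 3.19 and 1.26). Col6a1 had 5.34 to 6.98 CPM over the 4 libraries and did not pass (0.17 ± 0.38), and Col6a2, Col6a3, Col6a4 and Col6a6 had 34, 13, 16 and 0 counts over all libraries. Of the remaining collagens, Col7a1, the anchoring fibril collagen, had 17.1 and 11.96 CPM in the knockout and 19.6 and 22.0 CPM in wild type (-0.50 ± 0.22, edgeR adjusted p = 0.128), and passed without knockout replicate 2 (adjusted p = 0.0405). Col8a2 did not pass (-1.21 ± 0.61).

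The other 12 collagen genes below the filter each had at most 37 counts over all libraries. The 4 transmembrane collagens were among them, with 10 (Col17a1), 15 (Col13a1), 18 (Col25a1) and 36 (Col23a1) counts. Col26a1 had the highest total of them, with 11 and 24 counts in the knockout and 2 and 0 in wild type. Only its knockout libraries reached 1 CPM (1.74 and 5.22 CPM, against 0.396 and 0 CPM in wild type). A filter at 1 CPM in 2 libraries thus keeps Col26a1 through the group where it is high, and its call there is no independent support. Under the alternative filter of at least 1 CPM in 2 libraries it was tested and called higher (edgeR adjusted p = 0.00510), and where it was tested with wild-type replicate 3 left out it did not pass (edgeR adjusted p = 0.107). Col8a1, Col9a2, Col9a1, Col20a1, Col28a1 and Col10a1 ranged from 26 to 2 counts, and Col19a1 had 1.

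Of the 5 matricellular genes, Sparc, Fbln1 and Fbln2 were lower, Tnc was higher and Vtn did not pass. Sparc made up most of the difference in their sum, with a mean of 693.5 TPM in the knockout and 973 TPM in wild type. Sparc, which encodes a collagen-binding glycoprotein (osteonectin) of basement membranes (minus strand of chromosome 11, 55394500 to 55423183), had 443 and 468 CPM in the knockout and 609 and 658 CPM in wild type. The log2 fold change was -0.48 ± 0.06 (edgeR adjusted p = 1.59e-07), and the call was kept in all 13 alternatives. In TPM the libraries were at 673 and 714 against 972 and 974, so the genotypes were clearly apart. Fbln2, a fibulin that binds nidogen and laminin (plus strand of chromosome 6, 91212455 to 91272540), had 25.2 and 24.4 CPM in the knockout and 47.7 and 46.8 CPM in wild type. Its log2 fold change of -0.93 ± 0.15 (edgeR adjusted p = 2.71e-05) also held in all 13 alternatives.

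Fbln1, the related fibulin of elastic fibres and basement membranes, had 47.4 and 61.8 CPM in the knockout and 76.9 and 74.6 CPM in wild type. It was called at -0.49 ± 0.12 (edgeR adjusted p = 0.00524), but without knockout replicate 2, its lowest library, it stood at -0.29 (adjusted p = 0.237), and with DESeq2 it did not pass (adjusted p = 0.0551). Tnc, an adhesion-modulating glycoprotein of embryonic matrix, went the other way, with 32.8 and 35.9 CPM in the knockout and 20.96 and 25.0 CPM in wild type (0.57 ± 0.17, edgeR adjusted p = 0.0173). For Tnc, leaving out knockout replicate 3 or wild-type replicate 2 ended the call (adjusted p = 0.0898 and 0.147), as did DESeq2 (adjusted p = 0.134). Vtn, vitronectin, had 2.696 to 4.15 CPM over the 4 libraries and did not pass.

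**Figure D3:**
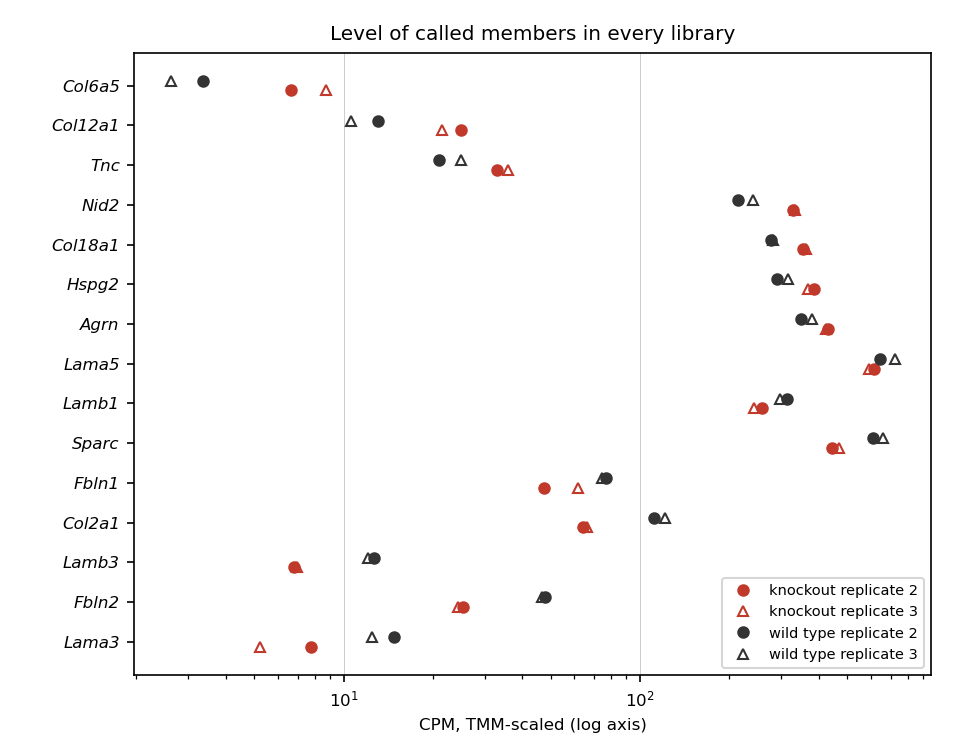
CPM (x axis, log scale) of 15 of the 16 called members in each library, ordered by log2 fold change, with knockout in red and wild type in black. No red point of a gene overlaps its black points, as for Fbln2 (25.2 and 24.4 against 47.7 and 46.8 CPM). The call itself makes such a gap likely.

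Many laminin, Sparc and type IV collagen transcripts are also abundant in primitive endoderm, so its markers are given beside the lower genes above. Of 14 primitive endoderm markers, 6 were tested, 3 were lower (Sox17 -1.24, Gata6 -1.15 and Pth1r -1.65) and none was higher, with Dab2 at 0.77 not past the threshold. That is 50% called, against 15.5% of all genes tested. Their summed level was 202 and 203 CPM in the knockout and 226 and 241 CPM in wild type, and Afp and Ttr had no count in any library. Of 12 fibroblast and mesenchyme markers, 8 were tested, 4 were lower (Fn1 -0.50, Postn -1.28, Acta2 -0.39 and Dcn -1.58) and none was called higher. That is again 50% called, against 15.5% of all genes tested. The highest of the 8 stood at 1.09 and did not pass. The list summed to 1404 and 1449 CPM in the knockout and 1906 and 2034 CPM in wild type, most of it Fn1. None of the 3 tested endothelial markers of 6 passed (Tek 0.77, Kdr 0.26, Vwf 0.09), Tie1 had no count, and the sums were 17.9 and 19.4 CPM against 10.9 and 18.1 CPM. The part of such cells in the results was not tested, and in bulk RNA fewer cells of a type and less RNA per cell cannot be told apart. The call of Gata6 ended when knockout replicate 2, knockout replicate 3 or wild-type replicate 3 was left out (edgeR adjusted p = 0.0592, 0.0776 and 0.242), that of Pth1r without wild-type replicate 2 or 3 (0.0848 and 0.0650), that of Dcn without knockout replicate 2 or wild-type replicate 3 (0.134 and 0.236) and that of Acta2 without knockout replicate 2 (0.0950).

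TPM and counts gave different sizes for some members. In RSEM's TPM a count is divided by the gene's effective length, which depends on the isoforms that reads are assigned to. Of the 37 tested members, 14 had mean effective lengths that differed by more than 10% between genotypes, and 4 of these were called. For Lamb3 the effective length was 3799 and 3852 bases in the knockout and 1800 and 3850 bases in wild type, so wild-type replicate 2 stood apart from the other 3 libraries. For Col6a5 it was 2902 and 5659 bases in the knockout and 1930 and 3758 bases in wild type, and for Col12a1 8506 and 8636 against 5727 and 7286 bases. For Hspg2 it was 8100.2 and 8699.6 bases in the knockout and 10123 and 9365 bases in wild type, which made the difference larger in TPM (85.5 and 73.9 against 52.2 and 60.8). A limma test on log2(TPM + 1), with a pseudocount of 1, called 4 of the 16 members, among them Sparc, Col2a1 and Fbln2. Among the 16, the genotypes overlapped in TPM for Lama5, Lamb1 and Col6a5. How many of all genes tested overlap in TPM was not counted, so no weight is put on the others.

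**Figure D4:**
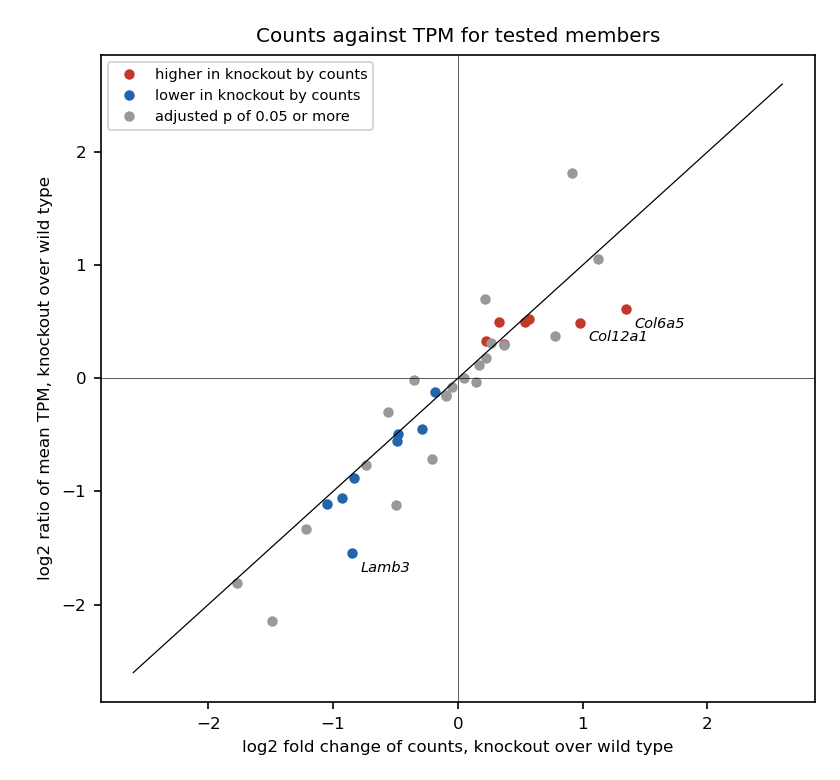
Log2 fold change from counts (x axis) against the log2 ratio of mean TPM (y axis), knockout over wild type, for 36 of the 37 tested members, with the line of equality and colours by the call from counts. Most called members lie near the line, while Col6a5 (1.35 and 0.61), Col12a1 (0.98 and 0.49) and Lamb3 (-0.85 and -1.55) lie off it.

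Promoter windows were looked at for the AP-1 motif, since c-Jun is a subunit of AP-1. RefSeq windows of 300 bases (250 before and 50 after a start site, GRCm38.p6) were at hand for 46 of the 62 members, 11 of them called, as 53 windows. The motif TGANTCA, which reads the same on both strands, was in 1 of the 53 windows and in 7.81% of the 32851 windows of all genes. The match was in Col6a1, which did not pass the threshold, at chr10:76726118-76726144 on the minus strand, 84 bases before the RefSeq start site. GENCODE places the 5′ end of Col6a1 further out, at 76726168, so by that annotation the match lies inside the gene. The 27 bases below show it with the motif in capitals.

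Col6a1: gctgatgctgTGACTCActcagctttg

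The CRE motif TGACGTCA was in 1 member window, that of Col24a1, against 1.79% of all windows. The GC box GGGCGG, searched on both strands, was in 33 of the 53 member windows and in 35.7% of all windows, the CCAAT box in 14 of 53 against 37.4%, and the sequence TATAAA in 7 of 53 against 13.6%. In none of the 53 windows (0) did matches of different motifs share a base. A match describes the letters of the window and not a site in use, and distal elements were not searched.

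To show the letters of some of these promoters, the 250 bases before a start site are given for 2 genes that rose, Agrn (chr4:156197489-156197738, minus strand) and Tnc (chr4:64047016-64047265, minus strand), and for 2 that fell, Lama5 (chr2:180225860-180226109, minus strand) and Fbln1 (chr15:85205699-85205948, plus strand). They are among the called genes whose window held no annotated exon, and were chosen after the windows were seen. Capitals mark GC boxes on either strand and, in Tnc, also TATAAA.

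Agrn: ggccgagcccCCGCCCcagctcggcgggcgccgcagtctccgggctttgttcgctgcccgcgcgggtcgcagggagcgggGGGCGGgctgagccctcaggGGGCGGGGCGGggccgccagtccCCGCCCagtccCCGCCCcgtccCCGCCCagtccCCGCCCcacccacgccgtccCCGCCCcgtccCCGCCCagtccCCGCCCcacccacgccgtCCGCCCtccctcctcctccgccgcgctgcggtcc

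Tnc: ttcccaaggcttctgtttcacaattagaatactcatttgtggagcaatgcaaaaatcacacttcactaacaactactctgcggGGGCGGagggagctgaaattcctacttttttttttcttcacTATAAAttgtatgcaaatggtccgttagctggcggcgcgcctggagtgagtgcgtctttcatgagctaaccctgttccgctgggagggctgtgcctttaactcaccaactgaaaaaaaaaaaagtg

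Lama5: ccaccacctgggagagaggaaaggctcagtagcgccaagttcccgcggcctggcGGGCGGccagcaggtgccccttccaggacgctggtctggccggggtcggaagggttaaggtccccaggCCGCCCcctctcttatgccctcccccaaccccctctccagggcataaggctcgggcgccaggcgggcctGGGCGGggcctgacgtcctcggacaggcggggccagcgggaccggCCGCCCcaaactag

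Fbln1: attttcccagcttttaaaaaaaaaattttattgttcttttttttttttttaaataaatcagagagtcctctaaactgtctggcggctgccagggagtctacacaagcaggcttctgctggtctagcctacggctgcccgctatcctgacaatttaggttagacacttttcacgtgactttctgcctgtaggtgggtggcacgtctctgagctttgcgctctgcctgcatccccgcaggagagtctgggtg

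Agrn is 83.6% G and C with 12 GC boxes, and Lama5, which fell, is 72.4% G and C with 4. Tnc, at 44.8%, holds TATAAA and 1 GC box, and Fbln1, at 46.4%, holds neither. RefSeq gives a second start site for 3 of these genes, whose windows differ: Agrn has 60.8% G and C with 2 GC boxes there, Tnc 51.2% with 1, and Fbln1 62.4% with 1.

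The genes that make, modify and bind these proteins also changed in both directions. Their lists too were chosen with earlier results of these data known, so their shares are not an unbiased measure. Of 26 genes of collagen synthesis and processing, 24 were tested, 3 rose and 6 fell, a share of 37.5% against 15.5% of all genes tested. P4ha1, a catalytic subunit of prolyl 4-hydroxylase, had 48.2 and 52.4 CPM in the knockout and 95.5 and 99.3 CPM in wild type (-0.96 ± 0.11, edgeR adjusted p = 8.75e-08). The other tested subunits, named after their values were seen, were also lower: P4hb (-0.23), P4ha2 (-0.64) and P4ha3 (-1.34). Leaving out wild-type replicate 3 ended the calls of P4ha2 (-0.40, edgeR adjusted p = 0.363) and P4ha3 (edgeR adjusted p = 0.224), and leaving out knockout replicate 2 that of P4ha2 (-0.50, edgeR adjusted p = 0.196). Plod2, a lysyl hydroxylase, fell by 0.37 on the log2 scale, while Fkbp10, a chaperone of collagen folding, rose from 19.2 and 28.0 to 54.7 and 55.0 CPM (1.21 ± 0.16, edgeR adjusted p = 9.07e-07). Colgalt1, a collagen galactosyltransferase on chromosome 8, was called at 0.62 ± 0.08 and stood at 0.11 with that chromosome centred (edgeR adjusted p = 0.414).

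Of 7 crosslinking genes, 4 were tested, 2 fell and none rose (50% of only 4 genes, against 15.5% of all genes tested). Loxl2, a lysyl oxidase that crosslinks type IV collagen, had 48.1 and 48.7 CPM in the knockout and 80.5 and 73.9 CPM in wild type (-0.67 ± 0.12, edgeR adjusted p = 7.44e-05). Pxdn, the peroxidase that forms the sulfilimine bond of type IV collagen, fell by 0.28 on the log2 scale (± 0.07), while in the test on log2(TPM + 1) it stood at -0.003. Loxl3 (0.73) and Tgm2 (-0.26) did not pass. Of 18 receptors, 13 were tested, 3 rose and 3 fell (46.2%, against 15.5% of all genes tested). Itga6, a laminin-binding integrin chain, rose by 0.53 ± 0.08, whereas its partner Itgb4 fell by 0.88 on the log2 scale (± 0.12), from 82.9 and 88.4 to 47.9 and 45.2 CPM (edgeR adjusted p = 9.37e-07). The collagen receptor Ddr1 fell by 0.40 on the log2 scale (± 0.07). Itgb1, the common beta chain, on chromosome 8, was called at 0.32 ± 0.05 and at -0.19 with that chromosome centred (edgeR adjusted p = 0.0156).

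Of 21 proteases and inhibitors, 16 were tested, 2 rose and 2 fell, a share of 25% against 15.5% of all genes tested. Mmp9, a gelatinase that cuts type IV collagen, had 10.6 and 11.3 CPM in the knockout and 2.77 and 3.54 CPM in wild type (1.78 ± 0.37, edgeR adjusted p = 7.21e-04). Adamts9 fell by 0.70 on the log2 scale (± 0.10). Timp3 was called at -0.55 and Adamts1 at 0.88, and both calls ended when knockout replicate 2 was left out (edgeR adjusted p = 0.183 and 0.0539) or wild-type replicate 3 (0.0855 and 0.217), that of Adamts1 also without knockout replicate 3 (0.185). Of 36 other matrix genes, 28 were tested, 4 rose and 7 fell (39.3%). Ntn1, a laminin-related guidance protein, fell from 190 and 208 to 60.6 and 62.0 CPM (-1.70 ± 0.09, edgeR adjusted p = 9.96e-15), and Fn1, fibronectin, from 1617 and 1719 to 1170 and 1184 CPM (-0.50 ± 0.04, edgeR adjusted p = 5.00e-10). Smoc2, a Sparc relative, fell by 1.34 on the log2 scale (± 0.19). Bgn, the small proteoglycan biglycan, rose from 7.52 and 8.58 to 35.4 and 37.4 CPM (2.17 ± 0.20, edgeR adjusted p = 1.81e-09).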

How the data were processed

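The authors deposited 1 gene table per library, made with RSEM and Bowtie2 on mm10 per the submitters' processing notes (tool versions: not given in the sources used here). The tables hold, per the file headers, the expected count (an estimated count), TPM, FPKM and the effective length in bases, a number other than a level. The deposited FPKM values were not used. Symbols and positions came from GENCODE M21 (GRCm38, the assembly of mm10), which matched 28756 of 29267 identifiers.

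Expected counts were rounded, filtered with filterByExpr (minimum count 10, minimum total 15; 12598 genes kept), scaled by TMM (0.988 to 1.0085) and tested with edgeR 4.0.16 in R 4.3.3 (glmQLFit, glmQLFTest, no covariate), with Benjamini-Hochberg adjustment over all genes tested and a threshold of 0.05. Standard errors are the log2 fold change divided by the square root of F. In simulated data for this comparison (12416 genes tested), the test found 45% of changes of 0.585 and 80.8% of changes of 1 on the log2 scale, and unchanged genes made up 3.85% of its calls. There, every gene had the same dispersion, and only 100 and 99 of the tested genes were changed by these sizes. No shift of chromosome 8 was simulated, so these rates are not those of the real calls. A chi-square test of counts within a genotype gave 2.51 and 2.54 per degree of freedom, above sampling noise, so no library was merged.

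The alternatives were RLE scaling, total counts, DESeq2 1.42.0, limma 3.58.1 on log2(TPM + 1), 2 other filters, a replicate block, chromosome 8 left out or centred, and each library left out. The members and lists were chosen with earlier results of these data known. Named in the text are the called members, the 12 most abundant tested members that did not pass, up to 4 genes with the smallest p from each other list, and Jun; the remaining members are given for completeness. P4hb, P4ha2, P4ha3 and Lama1, and other genes outside this rule, were chosen after their values were seen. The values of 1 member are not reported here; it stays in the fits, counts and sums.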

Additional observations from a re-analysis of the deposited data

How the results depend on the processing

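Over 13 alternatives, the 29 members followed by name gave 376 values, of which 335 kept their direction and their side of the threshold. In 34 a call was lost, in 3 one was gained and in 4 the direction turned. The turned directions listed below also include genes outside these 29, among them the member Col11a1, which the 4 leave out. With DESeq2 6 members were called higher and 4 lower in place of 8 and 8 (lost: Fbln1, Lama5, Lama3, Lamb3, Tnc and Col6a5), and over all genes tested 650 were higher and 473 lower in place of 1034 and 922. The limma test on log2(TPM + 1) called 1 member higher and 3 lower, and 250 genes higher and 170 lower. Without chromosome 8 genes 668 genes were higher, and with them centred 651. With 1 library left out, members called numbered 6 to 9 higher and 6 to 7 lower, and genes 835 to 888 higher and 633 to 757 lower. Directions that turned were those of Col11a1 (-0.02 in the limma test, -0.10 without knockout replicate 2, -0.21 without wild-type replicate 2), Col4a1 (-0.09 with chromosome 8 centred), Lamc1 (-0.1252 to 0.0239 with 1 library left out, turned without knockout replicate 3), Col4a2 (-0.46 with chromosome 8 centred, and -0.0738 to 0.1892 with 1 library left out, turned without wild-type replicate 2), Col16a1 (-0.25 without knockout replicate 3, up to a fitted 6.77 without wild-type replicate 3, where the remaining wild-type library had no count, so that this value is no bound), Itgb1 (-0.19 with chromosome 8 centred), Kdr (-0.0957 without wild-type replicate 2, up to 0.7402) and Vwf (-0.009 in the limma test, -0.18 without knockout replicate 3, -0.33 without wild-type replicate 2, up to 0.7207). Divided by the TMM factors, the matricellular sum in wild type was 1069.7 in place of 1077.8 TPM. The cause of these changes was not tested. The replicate numbers 2 and 3 are shared by name only (correlation of same-numbered deviations 0.022). With the replicate number as a block, 8 members were higher and 9 lower, Lama1 being added, and 1250 and 1127 genes. Members under about 10 CPM rest on few counts, and their differences are the least precise.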
